A study of Mus musculus with 49 samples.

Results

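The mRNA levels of the proteasome subunits were examined in mouse liver and in liver tumors driven by human MET. The genes were those whose symbols in the array annotation read Psma, Psmb, Psmc or Psmd followed by a number alone, without the immunoproteasome subunits Psmb8, Psmb9 and Psmb10. This rule found 34 of the 21517 gene symbols on the array, and 35 of its 43681 probe sets. Psmb7 alone had more than 1 probe set, and its brightest over the 49 samples was used. The 34 genes were divided into 14 of the core particle (8 of the alpha ring and 6 of the beta ring) and 20 of the regulatory cap (6 of the ATPase ring, 3 further subunits of the base, 8 of the lid and 3 assembly chaperones of the base). Psmb3 and Psmb11 were not analysed here.

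The proteasome degrades proteins that carry ubiquitin chains. Its core is a barrel of stacked rings, in which the outer alpha rings control entry and the inner beta rings hold the cutting sites. The cap binds and deubiquitinates substrates in its lid and base, and its ring of ATPases unfolds them and feeds them into the barrel. In mammalian cells the transcription factor Nrf1, the product of Nfe2l1, is known to raise subunit genes together when proteasome activity falls.

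All mice were FVB. The groups were LAP-tTA liver at 7 weeks (7 mice), TRE-MET liver at 6 weeks (7 mice), liver of 14-week mice labelled WT (7 mice) and, from 7 LAP-tTA-Tre-c-Met mice of 14 weeks, a liver sample labelled dis-Liv, one labelled ad-Liv and 2 tumors each (a and b, 14 in all). The abbreviations dis-Liv and ad-Liv were read as liver distant from and adjacent to the tumor, and these samples are called distant and adjacent. In this model the liver-specific LAP promoter drives the Tet-VP16 transactivator, which turns on a Tet-operator-controlled human MET gene, so that the controls labelled LAP-tTA carry the transactivator (2 copies, by the study's methods) without MET. The TRE-MET labels name the Tre-c-Met transgene alone, whereas the methods give these mice 1 copy of each transgene, and the methods give LAP-tTA mice, not FVB-WT mice, as the 14-week controls. TRE-MET sample 1 is titled 6 weeks, but its age is given as 14 weeks. Age therefore goes with genotype between the younger and older groups, and their effects cannot be told apart. Between TRE-MET and LAP-tTA liver, age (6 and 7 weeks) and transactivator copies (1 and 2, by the methods) also go with MET. Their effects cannot be told apart either. The level of the human transgene was not analysed here.

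Values are log2 of the deposited intensity, which averages 1.0 over the probe sets of each sample. Differences were tested with limma across all 43681 probe sets, and a gene was called where the Benjamini-Hochberg adjusted p was below 0.05. For each mouse the mean of its tumors entered the test, so each comparison set 7 samples against 7, and this number of arrays limits the precision. Of the 34 genes, 32 had mean levels between 0.11 and 3.84, at or above the 85.8th percentile of all probe sets. Psma3 (mean -3.46) and Psma8 (mean -3.93), the latter a form of the alpha ring known from testis, lay near or below the middle of the array, and their values are the least certain. As a gauge of background, Xist and the Y-linked gene Eif2s3y read -5.3 to -4.12 in the mice without their signal. A value at or below -4.12 has only a bound here. Where a group held such values, they were raised to that level, for tumors after averaging per mouse. Fold changes against such a group are given as at least the result. In bulk tissue, fewer cells of a type and less RNA per cell cannot be told apart.

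Some samples stood apart. Xist, transcribed from the inactive X chromosome, was at 1.14 to 1.79 in 2 WT mice (1 and 2) and in the distant, adjacent and tumor samples of 4 of the 7 tumor-bearing mice (3 to 6), and at -4.57 or below in every other mouse, including all 14 of the younger groups. Eif2s3y had the opposite pattern, at -4.12 or below in the mice with Xist signal and at 0.06 or above in the others. The labels give no sex, so comparisons between WT and the other groups are also given with Xist signal as a term of the fit and within each set of mice. Tumor 1b correlated with the other tumors at a median r of 0.95, against 0.98 to 0.99 for the rest, and tumor comparisons are given without it where that changes a call. Hepatocyte markers were abundant in every group, with a summed log2 level of 8.77 to 8.96 in non-tumor liver and 8.03 to 8.77 in tumors.

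Promoter windows are shown for 3 subunits that rose in tumors and 1 alpha subunit. The latter, Psma5, was called lower than in WT and distant liver, but these calls were lost under several alternatives given below. RefSeq (GRCm38.p6) gave windows of 250 bases before to 50 after a start site for 27 of the 34 genes, 29 windows in all. Each sequence is printed 5′ to 3′ in the direction of transcription, and capitals mark matches on either strand to the motifs searched, which did not overlap each other. The lid gene Psmd8 (chr7:29180624-29180923, minus strand) and the alpha ring gene Psma5 (chr3:108256676-108256975, plus strand) had no match. The lid gene Psmd13 (chr7:140882144-140882443, plus strand) had 1 CCGGAAG, and the ATPase gene Psmc2 (chr5:21785025-21785324, plus strand, the first of its 2 windows) had 1 CCAAT and 1 reverse CCGGAAG.
Psmd8: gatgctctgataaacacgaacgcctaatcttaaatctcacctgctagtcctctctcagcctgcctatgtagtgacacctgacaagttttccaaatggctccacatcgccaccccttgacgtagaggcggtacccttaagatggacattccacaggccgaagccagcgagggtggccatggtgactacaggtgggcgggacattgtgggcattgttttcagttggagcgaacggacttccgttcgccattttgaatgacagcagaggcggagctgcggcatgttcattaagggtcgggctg
Psmd13: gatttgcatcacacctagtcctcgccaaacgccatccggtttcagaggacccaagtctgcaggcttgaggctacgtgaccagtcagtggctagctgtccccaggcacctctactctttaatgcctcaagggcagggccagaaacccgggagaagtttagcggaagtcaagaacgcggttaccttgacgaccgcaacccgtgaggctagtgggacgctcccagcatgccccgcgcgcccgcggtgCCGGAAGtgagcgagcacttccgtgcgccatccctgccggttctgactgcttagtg
Psmc2: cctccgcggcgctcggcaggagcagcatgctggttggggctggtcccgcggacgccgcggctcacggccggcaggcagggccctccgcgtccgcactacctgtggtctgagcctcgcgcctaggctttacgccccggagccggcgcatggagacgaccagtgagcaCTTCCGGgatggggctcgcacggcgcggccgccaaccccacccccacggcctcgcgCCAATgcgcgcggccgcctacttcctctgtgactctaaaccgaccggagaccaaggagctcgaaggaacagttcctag
Psma5: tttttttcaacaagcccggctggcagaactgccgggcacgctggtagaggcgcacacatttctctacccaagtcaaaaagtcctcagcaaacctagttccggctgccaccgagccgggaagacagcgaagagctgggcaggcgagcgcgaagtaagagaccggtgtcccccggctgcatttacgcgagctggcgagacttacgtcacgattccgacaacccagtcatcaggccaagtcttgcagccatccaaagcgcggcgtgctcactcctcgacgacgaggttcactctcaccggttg

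CCGGAAG, a form of ETS factor sites, was present in windows of 10 of the 27 genes, namely 9 of the 17 cap genes with a window and 1 of the 10 core genes. Shorter or other forms of these sites were not searched. Over all 32851 mouse windows of this length, 8.86% held it. CCAAT was found for 10 of the 27 genes, 5 of the core and 5 of the cap, against 37.4% of all windows. TGACNNNGC, the letters bound by Nrf factors with small Maf partners, was found for 5 of the 27 genes (2 core, 3 cap), against 12.4% of all windows. Matches of letters are a description and do not show binding.

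Before tumors, few subunits differed between TRE-MET and LAP-tTA liver: 1 of the 34 was higher and 1 was lower. Over all probe sets, 3.26% were called higher and 3.6% lower, and among the 6204 probe sets as bright as the members 8.58% and 11.33%. The alpha ring gene Psma8 ran from -4.04 to -3.17 (median -3.71) in TRE-MET liver and from -4.35 to -4.11 (median -4.28) in LAP-tTA liver. No TRE-MET sample overlapped a LAP-tTA sample, and the measured difference was 0.59 (SE 0.10, limma adjusted p = 0.000738). Since 6 of the 7 LAP-tTA samples lay at or below -4.12, Psma8 was at least 1.38-fold higher in TRE-MET liver. Psmd5, a chaperone of the base, was at 1.01 to 1.43 (median 1.33) against 1.42 to 1.61 (median 1.49). These ranges touched at their ends, and the difference was -0.26 (SE 0.08, limma adjusted p = 0.0405). Without any one of LAP-tTA mice 1 to 6 or TRE-MET mice 1, 3 or 5, the Psmd5 call was lost and 1 call remained. The median change of the 34 genes was -0.03, beside 0.01 over all probe sets and -0.01 over those as bright as the members. Neutrophil markers differed as well, with 2 of 6 higher in TRE-MET liver and a summed level of -0.34 to 3.35 against -0.38 to 0.06; their part in the result was not tested.

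Some partners of the proteasome had larger changes in this comparison. Vcp, the ATPase that pulls ubiquitinated proteins out of complexes, was at 2.57 to 2.69 in TRE-MET liver and 3.18 to 3.33 in LAP-tTA liver. The ranges did not overlap, and Vcp was lower by -0.62 (SE 0.06, limma adjusted p = 3.82e-07). Psmf1, an inhibitor of the core particle, was also lower, by -0.60 (SE 0.07, limma adjusted p = 4.86e-06), with ranges of 1.28 to 1.60 and 1.92 to 2.08 that did not meet. Of the 13 genes listed for ubiquitin and delivery, 4 were lower and 0 higher, and of 5 assembly genes only Psmg3 was lower (-0.40, SE 0.08, limma adjusted p = 0.00252).

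In tumors, subunits rose, and most of the calls were in the cap. Against WT liver, 15 of the 34 genes were higher and 3 lower, where 13.4% of all probe sets were higher and 15.8% lower. The 15 were 11 of the 20 cap genes and 4 of the 14 core genes, while all 3 that fell belonged to the alpha ring. With Xist signal as a term of the fit 18 were higher (13 cap, 5 core) and 2 lower (1 cap, 1 core). Among the 6204 probe sets as bright as the members, 29.59% were higher and 28.14% lower. All tumors lay above all WT samples for 5 of the 34 genes (Psmb4, Psmd7, Psmd8, Psmd10 and Psmd13), as for 3.83% of all probe sets. The median change was 0.16 over the 34 genes, 0.20 in the cap and 0.04 in the core. It was -0.05 over all probe sets and 0.02 over those as bright as the members.

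Psmd8, which in yeast is the last subunit to join the lid, had the largest change. Its level was 2.61 to 2.96 (median 2.79) in tumors, 1.83 to 2.33 (2.15) in WT liver, 1.97 to 2.25 (2.02) in distant liver and 1.81 to 2.39 (2.02) in adjacent liver. Every tumor lay above every non-tumor sample of all 5 other groups. Against WT liver Psmd8 was higher by 0.67 (SE 0.07, 1.59-fold, limma adjusted p = 3.06e-06), against distant liver by 0.71 (SE 0.06, limma adjusted p = 6.98e-07) and against adjacent liver by 0.70 (SE 0.09, limma adjusted p = 4.28e-05). It was called in all 3 comparisons within the mice with Xist signal (0.81, 0.68 and 0.63) and within the mice without it (0.66, 0.74 and 0.80).

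Other lid genes followed at smaller sizes. Psmd7, the structural partner of the lid's deubiquitinase, was at 1.58 to 2.09 (median 1.88) in tumors and 1.42 to 1.56 (median 1.49) in WT liver, without overlap, a difference of 0.38 (SE 0.06, limma adjusted p = 7.76e-05). Psmd13, a structural lid subunit, was at 1.95 to 2.46 (2.17) against 1.69 to 1.86 (1.80), also without overlap, and differed by 0.39 (SE 0.06, limma adjusted p = 0.000199). Psmd14, the deubiquitinase itself, was at 2.07 to 2.42 (2.26) in tumors against 1.67 to 2.15 (2.09). Its 2 lowest WT values were those of the mice with Xist signal, the ranges overlapped, and the difference of 0.24 (SE 0.08, limma adjusted p = 0.0284) was no longer called without WT 2 or tumors of mice 1, 2 or 7. With Xist signal as a term of the fit Psmd14 was called again, at 0.31 (SE 0.06, limma adjusted p = 6.40e-04). The lid genes Psmd3, Psmd6 and Psmd12 were within 0.02 of WT liver and were not called. Psmd11 had the opposite sign, at -0.21 (SE 0.09, limma adjusted p = 0.0811), and was called lower only in the mice without Xist signal (-0.28, limma adjusted p = 0.0395), where mice with it were at 0.05.

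Psmd10, a chaperone of the base also known as the oncoprotein gankyrin, was at 0.16 to 0.70 (median 0.37) in tumors and -0.16 to 0.06 (median -0.04) in WT liver. The ranges did not overlap, and the difference was 0.40 (SE 0.06, 1.32-fold, limma adjusted p = 1.50e-04). Psmd5, a chaperone of the same step, was higher by 0.23 (SE 0.06, limma adjusted p = 0.00479). Psmd9, the third of these chaperones, had the opposite sign, at 0.09 to 1.16 (0.77) in tumors against 0.77 to 1.28 (1.11). It was not called in any of the tumor comparisons as deposited, but was lower with Xist signal as a term (-0.34, SE 0.09, limma adjusted p = 0.00738), and also called lower against WT and distant liver with quantile normalization.

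Within the ATPase ring Psmc2, Psmc6 and Psmc3 rose against WT liver. Psmc2 was at 3.55 to 3.92 (median 3.76) against 3.28 to 3.57 (3.47), ranges that met at the edge, and differed by 0.31 (SE 0.06, limma adjusted p = 0.00171). Psmc4 was at 2.63 to 2.88 (2.80) in tumors and at 2.26 to 2.85 (2.68) in WT liver, with the WT mice 1 and 2 both at the low end, and was not called. With Xist signal as a term it was higher by 0.25 (SE 0.07, limma adjusted p = 0.0195), and so was Psmc5 by 0.22 (SE 0.06, limma adjusted p = 0.0169). The scaffold subunits of the base, Psmd1 and Psmd2, were higher by 0.24 and 0.21 (SE 0.07 each), whereas the ubiquitin receptor Psmd4 was at -0.02 and not called. The Psmd2 call was lost without tumor 1b (limma adjusted p = 0.0569), and without any one of WT mice 1, 2, 5 or 6 or tumor-bearing mice 1, 2, 3, 6 or 7. That of Psmc6 was lost without WT mouse 1 or 2 or tumor-bearing mouse 2, 3, 5 or 7.

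The core was divided. In the beta ring Psmb4, a subunit without a cutting site, was at 3.86 to 4.27 (median 4.01) in tumors and 3.53 to 3.79 (3.72) in WT liver. No sample overlapped, and the difference was 0.32 (SE 0.06, limma adjusted p = 4.10e-04). Psmb7, which carries the trypsin-like site, and Psmb1 were higher by 0.25 and 0.16, while Psmb5 and Psmb6, with the chymotrypsin-like and caspase-like sites, were at 0.01 and 0.02 and were not called. The Psmb1 call was lost without WT mouse 1 or 4 or tumor-bearing mouse 2, 5, 6 or 7.

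In the alpha ring, Psma8 was lower in tumors by -0.59 (SE 0.11, limma adjusted p = 9.28e-04), Psma5 by -0.22 (SE 0.07, limma adjusted p = 0.0347) and Psma6 by -0.18 (SE 0.06, limma adjusted p = 0.0248). Psma8 ran from -4.63 to -3.56 in tumors and from -3.86 to -3.02 in WT liver, and with 9 of the 14 tumors at or below -4.12 it was at least 1.41-fold lower. Psma5 was at 2.13 to 2.51 (2.33) against 2.29 to 2.70 (2.59), and Psma6 at 3.21 to 3.50 (3.36) against 3.40 to 3.63 (3.56), so that all of these ranges overlapped. The Psma5 difference was called on one side of the Xist split: it was -0.34 in mice without the signal (limma adjusted p = 0.0153) and 0.03 in mice with it (limma adjusted p = 0.874), and whether these differ was not tested. With Xist signal as a term, neither Psma5 (limma adjusted p = 0.0739) nor Psma6 was called. The Psma5 call was also lost without any one of WT mice 3 to 7 or tumor-bearing mice 1, 3, 4, 6 or 7, and the Psma6 call without tumor-bearing mouse 4 or 6. Psma3 was higher by 0.26 (SE 0.08, limma adjusted p = 0.0213) from a signal near the middle of the array.

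**Figure D1:**
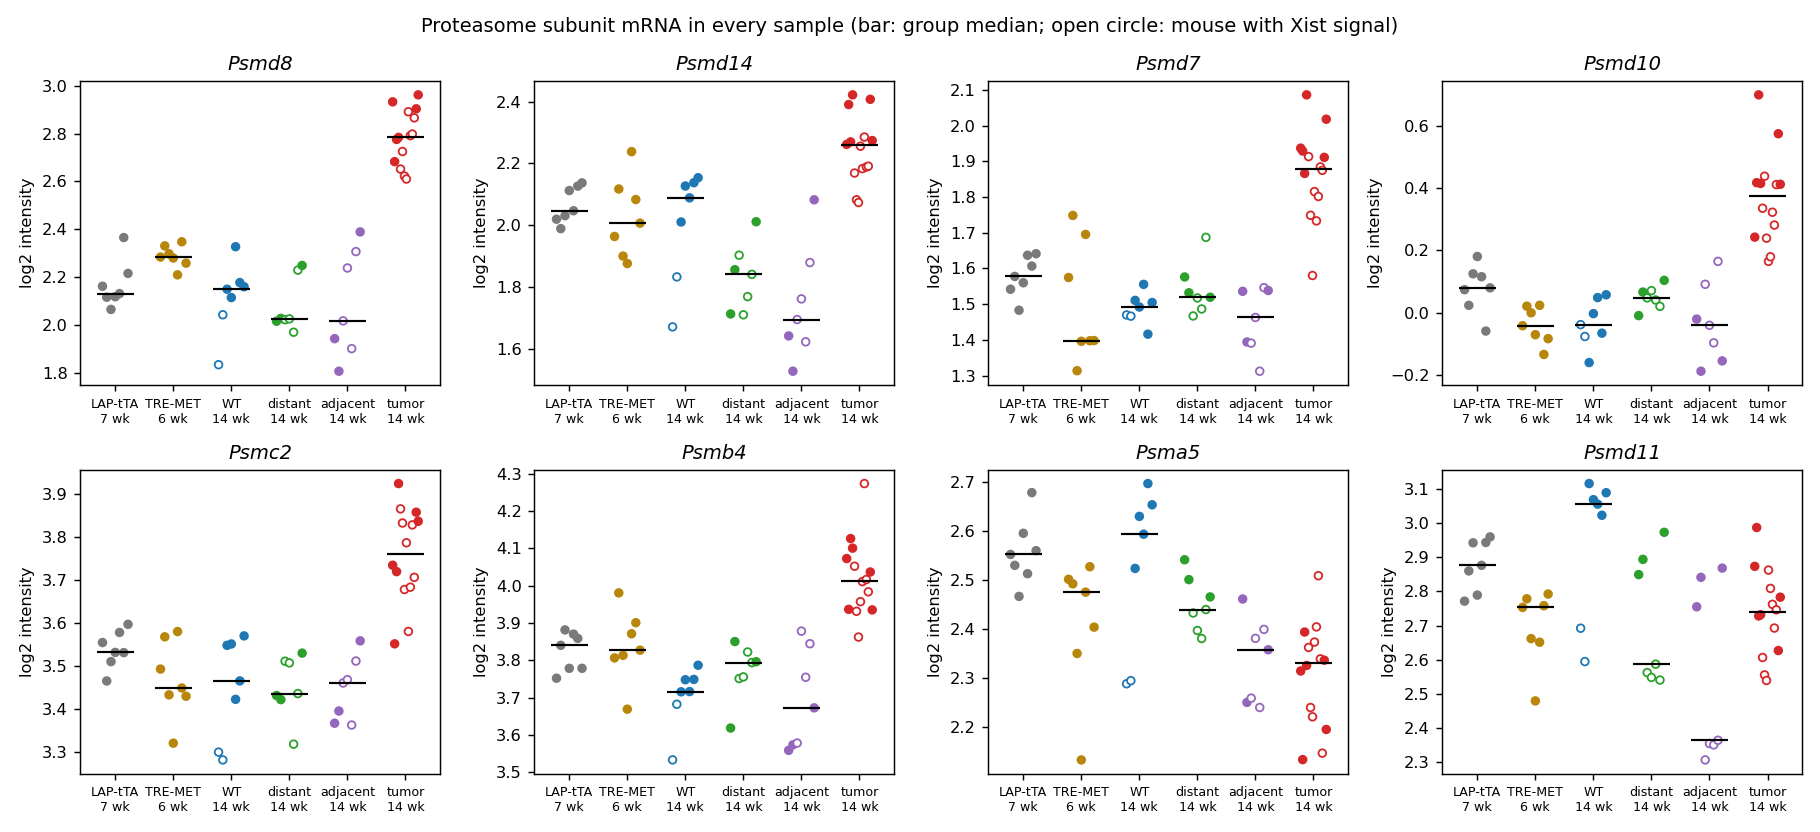
Log2 intensity of 8 proteasome subunits in every sample of the 6 groups, with one circle per sample (14 in the tumor group, 7 in each other), a bar at each group's median, and open circles for mice with Xist signal. Every tumor lies above all other samples for Psmd8, whereas for Psmd11 open and filled circles stand apart in WT, distant and adjacent liver, as do the values of Psmb7, which is not plotted.

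Tumors were also compared with liver of the same animals, in a fit without the mouse as a term. This fit gave 19 calls against distant liver and 24 against adjacent liver, beside 18 against WT liver. Against distant liver 17 genes were higher (12 cap, 5 core) and 2 lower, where 13% of all probe sets were higher and 14% lower, and 27.53% and 26.77% of those as bright as the members. Psmd14 was at 1.71 to 2.01 (median 1.84) in distant liver, below every tumor, and was higher in tumors by 0.42 (SE 0.06, limma adjusted p = 8.40e-05). Psmd1 was at 2.57 to 2.73 (2.62) in distant liver and 2.68 to 3.24 (3.02) in tumors, an overlapping pair of ranges, with a difference of 0.38 (SE 0.05, limma adjusted p = 4.44e-05). Psmc4 differed by 0.33 (SE 0.06, limma adjusted p = 6.45e-04), from a median of 2.40 in distant liver. Psmb4, Psmc2, Psmd8, Psmd10 and Psmd14 were the 5 of 34 genes with every tumor above every distant sample, as for 3.17% of all probe sets. The genes that were lower were Psma8 (at least 1.17-fold) and Psma5 (-0.14, SE 0.05). The Psma5 call was lost without tumor 1b (limma adjusted p = 0.0602), and without any one of distant samples 1, 2, 3, 6 or 7 or tumor-bearing mice 1, 2, 3, 4, 6 or 7. The Psma3 call was lost without distant sample 1, 2, 4 or 7 or tumor-bearing mouse 2, 5 or 7, and that of Psmd3 without mouse 4. With the mouse as a replicate block 17 genes were called, Psma3 and Psma5 being lost. With Xist signal as a term 17 were higher and 1 lower.

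Against adjacent liver 23 genes were higher (17 cap, 6 core) and 1, Psma8, was at least 1.245-fold lower. Of all probe sets, 12.8% were higher and 23.5% lower, a split of 35.2% higher among the calls that became 46.0% with quantile normalization and 65.3% with sample medians set equal. Among probe sets as bright as the members, 30.05% were higher and 23.55% lower. All 6 genes of the ATPase ring, all 3 other base subunits and 6 of the 8 lid genes rose. Psmd14 again stood high, with adjacent liver at 1.53 to 2.08 (median 1.69) and a difference of 0.50 (SE 0.08, limma adjusted p = 2.29e-04). Psmd1 differed by 0.47 (SE 0.06, limma adjusted p = 5.26e-05) and Psmd13 by 0.43 (SE 0.08, limma adjusted p = 0.00112). Of the tumor comparisons, Psmb5 was called only in this one, at 2.44 to 2.77 (2.53) in adjacent liver against 2.56 to 3.10 (2.86) in tumors, a difference of 0.29 (SE 0.07, limma adjusted p = 0.00783). With the mouse as a replicate block 20 genes were called, without Psma3, Psmc3, Psmc6 and Psmd3. Leaving out adjacent sample 1, 2, 3, 5 or 6 or mouse 2, 5 or 7 of the tumors ended the Psma3 call, leaving out any adjacent sample but 6 or any mouse of the tumors but 1 and 4 the Psmc6 call, and leaving out adjacent sample 3 or 5 or mouse 2 or 7 of the tumors the Psmd6 call. The 3 tumor comparisons share the tumor samples, so their lists of calls are not independent of each other.

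**Figure D2:**
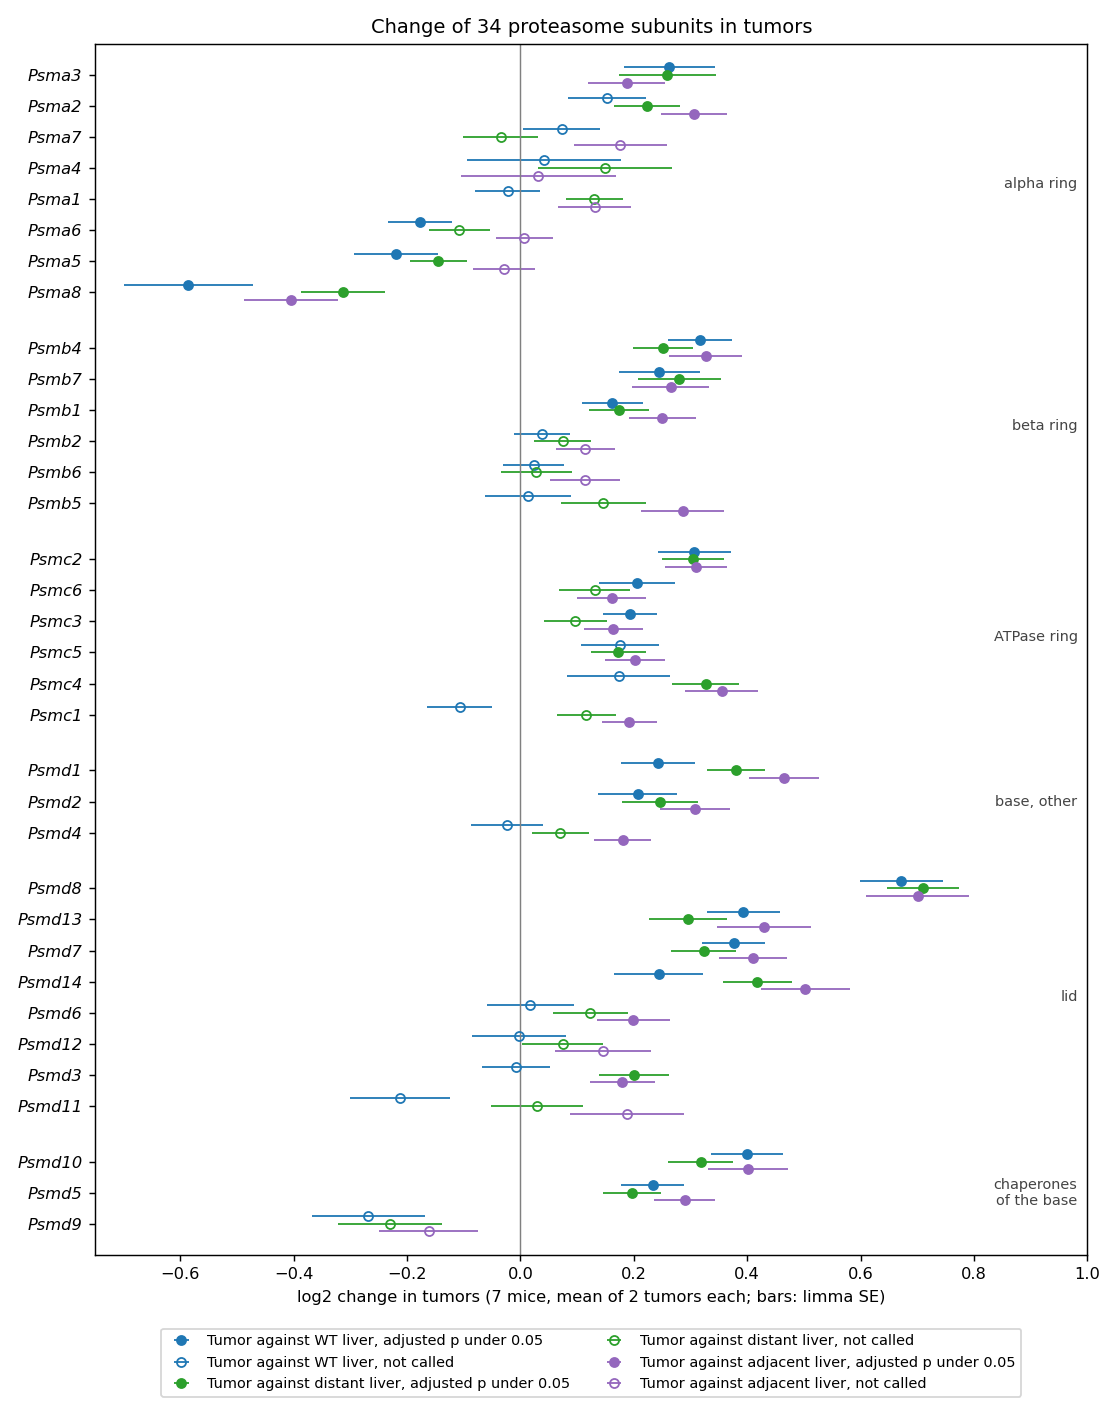
Log2 change of each of the 34 subunits in tumors against WT, distant and adjacent liver (7 mice each, tumors averaged per mouse), grouped by part of the complex, with bars of 1 SE from limma and filled points for a limma adjusted p under 0.05. Psmd8 lies at 0.67 to 0.71 in all 3 comparisons, and Psma8, Psma5 and Psmd9 lie below 0 in each.

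The core and cap were also compared as parts, as a description with no test. The cap score, the mean of its 20 genes relative to WT liver, was 0.02 to 0.26 (median 0.18) in tumors, -0.13 to 0.08 in WT liver, -0.10 to 0.04 in distant liver and -0.19 to 0.03 in adjacent liver. The core score was -0.11 to 0.17 (median 0.03) in tumors and -0.18 to 0.11 in WT liver. Both pairs of ranges overlapped in part, with tumors 2a, 5b and 7a above every WT sample in the core. Within each sample, cap minus core was 0.04 to 0.23 in the 14 tumors, and -0.14 to 0.06 in non-tumor liver. These ranges overlapped, with tumors 5b and 7a below WT samples 1, 3 and 4 and adjacent sample 7. Without the dim genes Psma3 and Psma8 it was -0.01 to 0.18 in tumors and -0.06 to 0.05 in WT liver, which also overlapped. Mean tumor scores were 0.18 for the lid, 0.16 for the ATPase ring, 0.14 for the other base subunits, 0.13 for the beta ring and -0.06 for the alpha ring. The alpha ring without the dim genes was at -0.03, and at 0.00 with sample medians set equal.

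**Figure D3:**
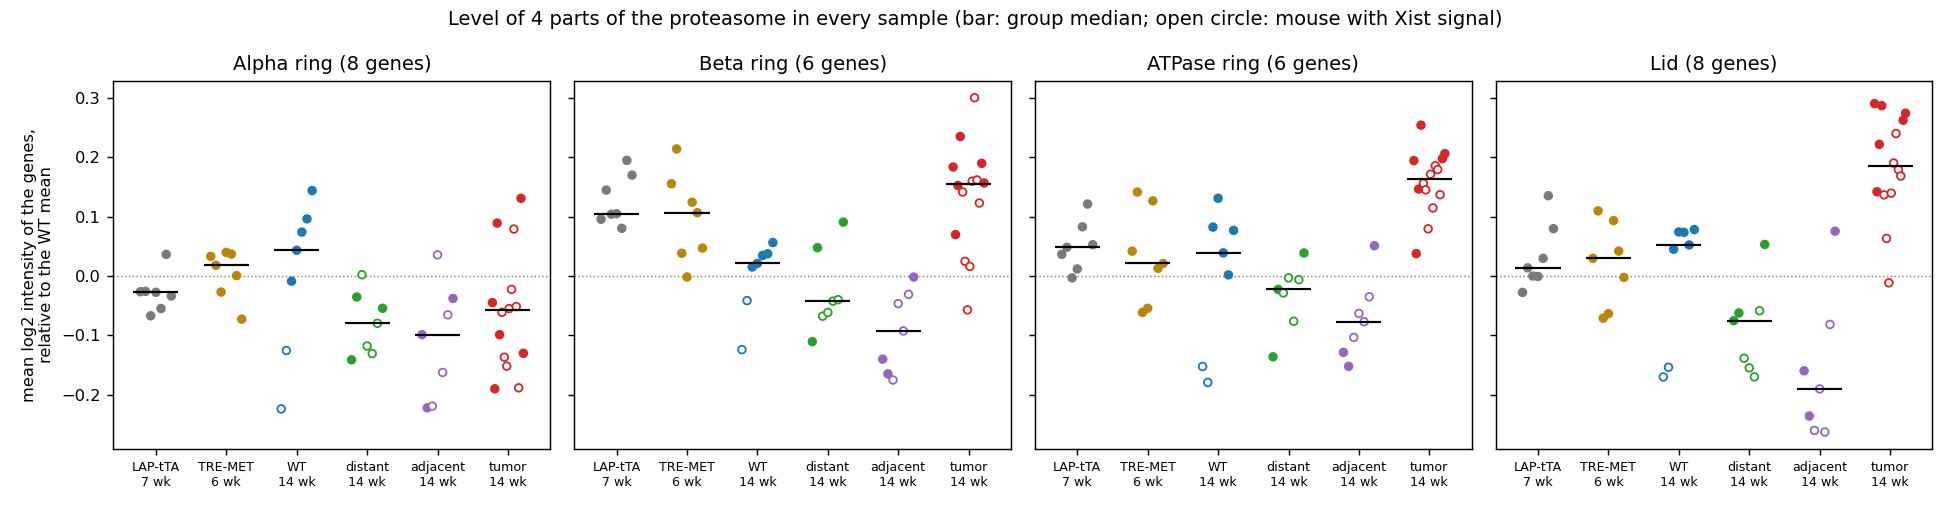
Mean log2 intensity of the genes of the alpha ring, beta ring, ATPase ring and lid in every sample, relative to the WT mean, with a bar at each group's median and open circles for mice with Xist signal. The 14 tumors have medians of -0.06, 0.15, 0.16 and 0.19 in these parts, and adjacent liver is lowest for the lid.

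Levels of cell type markers differed in the tumor samples as well. Of 7 markers of proliferating cells 6 were higher than in WT liver, with a summed level of 1.92 to 3.62 against 0.15 to 0.70. Hepatocyte markers were lower for 5 of 8 and macrophage markers for 5 of 8 (2.66 to 5.52 against 4.09 to 4.64), endothelial markers were lower for 5 and higher for 1 of 8 (2.81 to 4.67 against 4.28 to 4.67), stellate markers were higher for 4 and lower for 2 of 8 (4.06 to 7.92 against 4.50 to 4.90), lymphocyte markers were lower for 4 of 7, a neutrophil marker was lower for 1 of 6, and cholangiocyte markers were higher for 1 and lower for 1 of 6. Tumor 1b had the lowest hepatocyte sum (8.03) and the highest sum of every other of these lists. It was at 7.92 for stellate (other tumors up to 6.02), 3.27 for neutrophil (up to 0.67), 4.82 for cholangiocyte (up to 2.997), 5.52 for macrophage (up to 4.65), 2.96 for lymphocyte (up to 1.64), 3.62 for proliferating (up to 3.08) and 4.67 for endothelial markers (up to 4.0). Without it the endothelial sums of tumors all lay below those of WT liver. Their part in the subunit results was not tested. Without tumor 1b the counts were 15 higher and 3 lower against WT liver, 18 and 1 against distant liver, and 23 and 1 against adjacent liver.

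The 2 tumors of a mouse varied among themselves. The median SD over the 34 genes was 0.12 within mice and 0.09 between mouse means, each a mean of 2 tumors, and 21 genes had the larger SD within mice. Mouse 1 had the largest gap between its tumors for 14 genes, the widest being Psma4 (1.05), Psma8 (0.80) and Psmd9 (0.68). Without mouse 1 the medians were 0.10 and 0.09, and 19 genes had the larger SD within mice.

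In non-tumor liver of the tumor-bearing mice few subunits were called, and all of these were lower than in WT liver. In distant liver, 0 genes were higher and 1 lower than in WT liver, against 2.47% and 2.6% of all probe sets, and 6.69% and 7.22% of those as bright as the members. The lower one was Psmc1, an ATPase of the ring, at 2.58 to 2.80 (median 2.69) against 2.74 to 3.03 (2.94), a difference of -0.22 (SE 0.06, limma adjusted p = 0.0491). The call was lost without any one of WT mice 3 to 7 or distant samples 1, 3, 4, 5 or 6, and with Xist signal as a term of the fit. Markers of other cells differed too: 5 of 8 stellate markers were lower in distant liver (summed level 4.09 to 4.46 against 4.50 to 4.90), 1 of 6 cholangiocyte markers was lower (0.16 to 0.57 against 1.32 to 1.54), and 2 of 6 neutrophil markers were higher (0.31 to 1.61 against -0.15 to 0.22). None of these sums overlapped, and their part in the result was not tested.

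In adjacent liver 0 genes were higher and 3 lower, against 3.85% and 3.15% of all probe sets. Among those as bright as the members 7.06% were higher and 10.22% lower, so the members' share of lower calls was no larger than that of equally bright probe sets. Of all calls 54.9% were higher, and 30.01% with sample medians set equal. Psmc1 was at 2.53 to 2.69 (median 2.63), below every WT sample, and was lower by -0.30 (SE 0.06, limma adjusted p = 0.00627). Psmb5 was at 2.44 to 2.77 against 2.65 to 2.99 and was lower by -0.27 (SE 0.07, limma adjusted p = 0.0268). Psmd11, a lid subunit, was lower by -0.40 (SE 0.12, limma adjusted p = 0.0442). Adjacent liver was the lowest of the 6 groups for 22 of the 34 genes, a count whose share over all probe sets was not determined. The median change against WT liver was -0.10, beside 0.04 over all probe sets and -0.03 over those as bright as the members. With sample medians set equal 10 genes were called, all lower. That scaling moved calls over all 43681 probe sets the same way, from 1680 higher and 1378 lower to 911 and 2125. With Xist signal as a term 2 genes were called lower, Psmc1 (-0.26, limma adjusted p = 0.0114) and Psmd11. The Psmb5 call was lost without WT 4 or 5 or adjacent samples 3 or 5, and the Psmd11 call without any one of WT mice 3 to 7 or adjacent samples 3 to 6. Neutrophil markers were higher for 2 of 6 (0.26 to 1.19 against -0.15 to 0.22), and their part was not tested. Without WT 2 there were 5 calls, and without adjacent sample 7 there were 7.

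Many subunits differed between the 2 WT mice with Xist signal (1 and 2) and the other WT mice. Of the 34 genes 22 were lower and 1 higher in the 2 WT mice with the signal than in all 5 others, against 13% and 8.22% of all probe sets. These 2 samples also had the lowest median r with their group (0.988 and 0.987, others 0.991 to 0.993). Xist signal and other differences of these 2 arrays cannot be told apart within WT liver. In distant liver 4 were lower and 1 higher (7.55% and 4.95% of all probe sets), and in adjacent liver 2 and 1 (5.61% and 5.74%). Only Psmb7 and Psmd11 were lower without overlap in all 3 groups, as were 1.05% of all probe sets. Psmb7 was at 3.19 and 3.34 in the WT mice with the signal against 3.41 to 3.54, at 3.26 to 3.33 against 3.34 to 3.60 in distant liver and at 3.25 to 3.41 against 3.47 to 3.52 in adjacent liver.

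Psmd11, whose protein touches both the core and the ATPase ring, had the wider gaps. In WT liver it was at 2.59 and 2.69 in the mice with the signal and at 3.02 to 3.12 (median 3.07) in the others. In distant liver it was at 2.54 to 2.59 in the 4 mice with the signal and 2.85 to 2.97 in the 3 without, and in adjacent liver at 2.31 to 2.36 and 2.75 to 2.87. There was no overlap between the sets in any of these 3 groups, although in tumors the sets overlapped, at 2.54 to 2.86 and 2.63 to 2.99. With Xist signal as a term, adjacent liver was lower than WT liver by -0.27 (SE 0.06, limma adjusted p = 0.00821). Both genes were singled out after their values were seen, and the separation was not tested.

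No subunit was called between adjacent and distant liver: 0 of the 34 and 0 of all probe sets (0% higher, 0% lower) were called with limma, and the methods' test at an unadjusted p under 0.01 gave 1. The median change was -0.08, beside 0.04 over all probe sets and -0.03 over those as bright as the members. With the mouse as a replicate block 0 subunits were called as well. Within mice, 7 of the 34 genes (Psma5, Psmb2, Psmb5, Psmd4, Psmd6, Psmd11 and Psmd13) were lower in adjacent than in distant liver in all 7 animals and 0 were higher in all 7, against 1.76% and 2.98% of all probe sets. The median differences were -0.18 for Psmd11, -0.15 for Psmb5 and -0.11 for Psma5, Psmd4 and Psmd13. These directions are a description and were not tested, and their share among probe sets as bright as the members was not determined.

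Across age, 0 of the 34 genes were called between WT liver at 14 weeks and TRE-MET liver at 6 weeks, while 2.98% of all probe sets were higher and 3.1% lower, and 8.72% and 5.87% of those as bright as the members. Of all calls 49.02% were higher, and 80.9% with sample medians set equal. Among mice without Xist signal, which includes every TRE-MET mouse, Psmd11 was higher in WT liver by 0.37 (SE 0.07, limma adjusted p = 0.00996). Against LAP-tTA liver at 7 weeks, 1 gene was higher and 2 lower, where 5.24% of all probe sets were higher and 4.18% lower (55.6% of calls higher, and 72.9% with sample medians set equal). Of those as bright as the members, 13.06% were higher and 8.87% lower. Psma8 was at least 1.43-fold higher (limma adjusted p = 8.03e-04) without overlap, Psmb7 was lower by -0.25 (SE 0.07, limma adjusted p = 0.0209), at 3.19 to 3.54 against 3.56 to 3.75, and Psma3 was lower by -0.31 (SE 0.09, limma adjusted p = 0.0318), a call lost without LAP-tTA mouse 1, 4, 6 or 7 or WT mouse 1, 2 or 6. Among mice without Xist signal only Psma8 was called. Without WT 7 there were 5 calls in place of 3. Macrophage markers also differed, 7 of 8 being higher in WT liver, with a summed level of 4.09 to 4.64 against 3.66 to 4.07; their part in the result was not tested.

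Over the 6 groups together, 29 of the 34 genes (11 core, 18 cap) differed by limma's F test, where 55% of all probe sets did. The share among probe sets as bright as the members was not determined. Tumor, adjacent and distant samples share mice, which this fit left out of account. Tumors were the highest group for 16 genes, and the share over all probe sets was not determined. The widest spread of group means was that of Psmd8 (0.71), followed by Psma8 (0.63), Psmd14 (0.50) and Psmd1 (0.47). The genes that did not pass were Psma1, Psma4, Psmb6, Psmc5 and Psmd12. These were also the genes that did not pass with the correlation within mice (0.076) in the fit. The change from LAP-tTA to TRE-MET liver was also set against the change from WT to distant liver. Of the 34 genes 1 was higher (Psma8) and 2 lower (Psma7 and Psmd5) in that test, against 3.86% and 3.87% of all probe sets. The Psma8 difference was 0.59 before tumors and -0.27 in distant liver, and these measured values, the first against LAP-tTA samples near background, differed by 0.86 (SE 0.16, limma adjusted p = 4.14e-04).

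Pairs of subunits varied together to a modest degree. Across the 42 samples (tumors averaged per mouse) the median Pearson r between pairs of genes was 0.40 within the core, 0.33 within the cap and 0.32 between core and cap, values that share the samples, their groups and their scaling.

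Some other genes of the pathway had larger changes than the subunits. Among 9 regulators of proteasome genes, 5 were higher and 1 lower in tumors than in WT liver. Beside this and the counts of the lists below, 13.4% of all probe sets were higher and 15.8% lower. Among those as bright as the members the shares were 29.59% and 28.14%. Nfe2l3, which encodes Nrf3, a relative of Nrf1, ran from -3.50 to 0.01 (median -0.94) in tumors and from -5.0 to -4.42 (median -4.74) in WT liver. All 7 WT samples lay at or below -4.12 and none overlapped a tumor, and Nfe2l3 was at least 8.13-fold higher in tumors (limma adjusted p = 5.95e-08). One adjacent sample, number 4, was at -2.62, while the other 6 were at -4.20 or below. Maff, a small partner of these factors, was higher by 2.39 (SE 0.12, limma adjusted p = 6.49e-10) and Nfe2l2, encoding Nrf2, by 0.98 (SE 0.10, limma adjusted p = 1.47e-06).

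Nfe2l1 itself was at 0.77 to 1.46 (median 1.13) in tumors and 0.85 to 1.27 (1.1) in WT liver, and was not called. Ddi2, the protease that releases Nrf1 for its activation, was at 0.08 to 1.11 (0.44) in tumors and 1.42 to 1.76 (1.55) in WT liver. It was lower by -1.11 (SE 0.09, 2.15-fold, limma adjusted p = 1.42e-07) with no overlap, and was also lower in distant and adjacent liver than in WT liver, by -0.46 and -0.60.

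Among the 13 genes of ubiquitin and delivery 4 were higher and 0 lower. The share of higher calls was near that of probe sets as bright as the members (29.59%). Zfand2a, a stress-induced partner of the proteasome, was at -0.45 to 1.33 (median 0.14) against -1.78 to -0.95 (-1.3), without overlap, a difference of 1.41 (SE 0.15, limma adjusted p = 2.98e-06). Vcp was higher by 0.44 (SE 0.06, limma adjusted p = 4.02e-05).

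Of 5 assembly genes outside the naming rule, 4 were lower and 1 higher. The 3 chaperones of the base among the members differed from this, with 2 higher (Psmd5 and Psmd10) and 0 lower. Psmg2, a chaperone of alpha ring assembly, was at 0.84 to 1.26 (median 1.18) in tumors against 1.48 to 1.76 (1.64), without overlap, and was lower by -0.50 (SE 0.06, limma adjusted p = 8.04e-06). Psmg1 and Psmg3 were lower by -0.29 and -0.30 and Pomp, which guides the beta ring, by -0.19. Ecpas, which binds the assembled proteasome, was higher by 0.37 (SE 0.07).

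The immunoproteasome subunits, which replace catalytic beta subunits in immune and interferon-exposed cells, were lower for 2 of 3. Psmb9 was at -0.33 to 1.64 (median 0.33) in tumors and 0.96 to 1.86 (1.3) in WT liver, overlapping, and was lower by -0.85 (SE 0.26, limma adjusted p = 0.0198), and Psmb10 by -0.46 (SE 0.17, limma adjusted p = 0.0493). Psmb8 was not called. In mice without Xist signal all 3 were lower, and in mice with it 0 were. Of 6 interferon response genes 1 was higher. In WT against LAP-tTA liver all 3 immunoproteasome genes were higher.

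The remaining lists were small. Of 5 activators and inhibitors of the core, Psme4 alone was lower (-0.21, SE 0.07, limma adjusted p = 0.0300), and the call was lost with Xist signal as a term. Of 3 cap subunits outside the naming rule Uchl5 was higher (0.18), and of 4 enzymes bound to the proteasome Ube3a was higher (0.27).

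**Figure D4:**
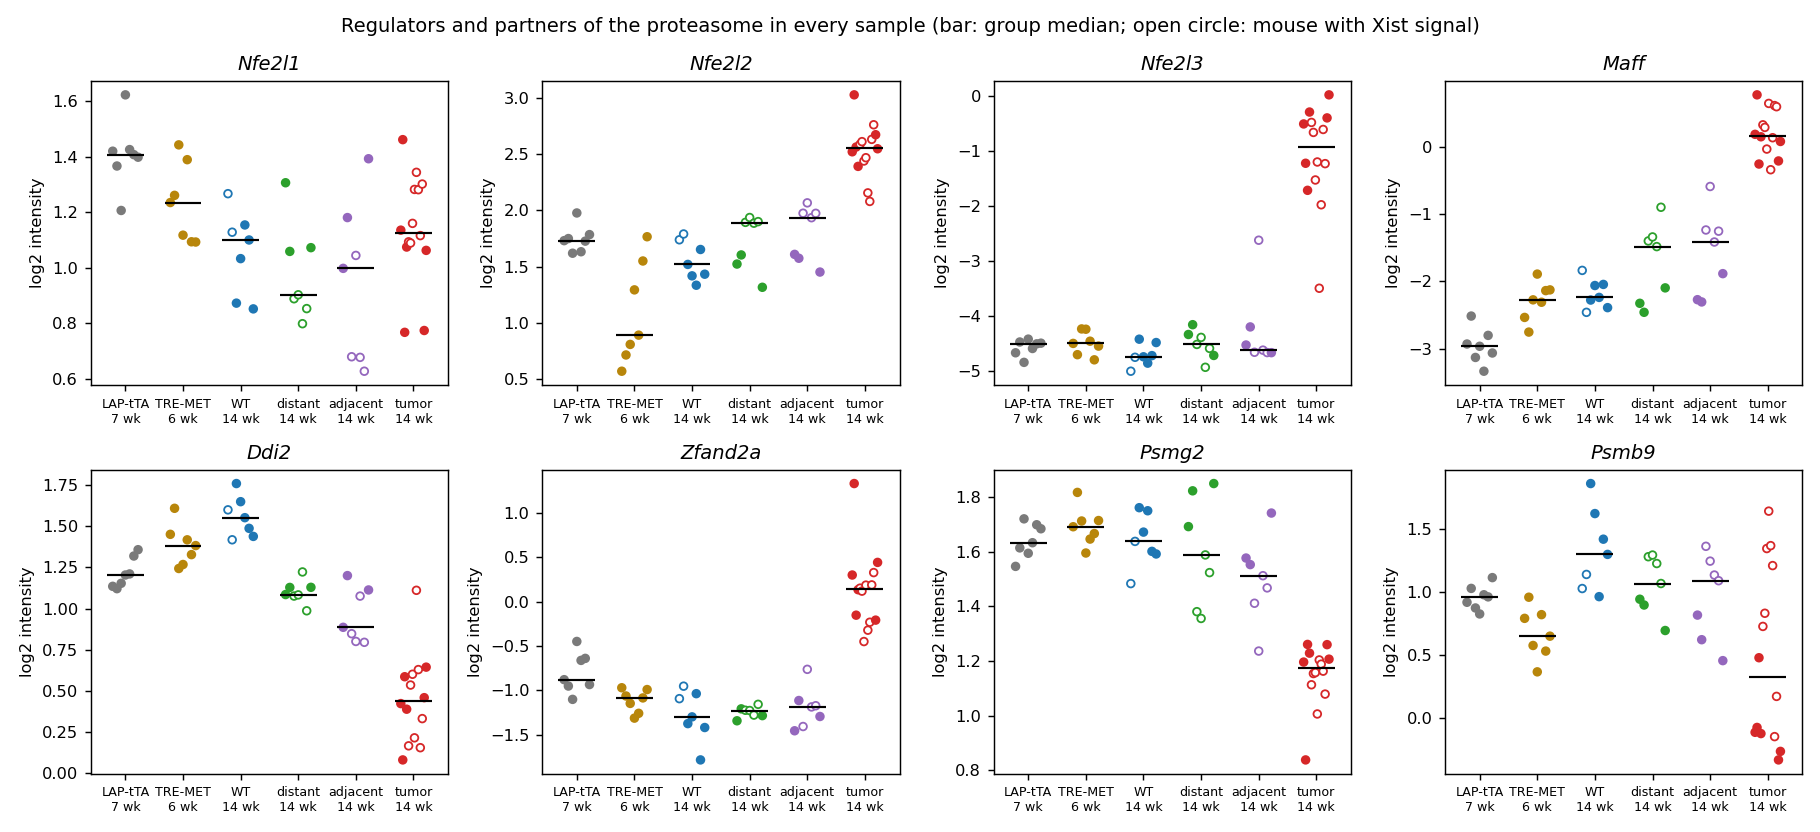
Log2 intensity of 4 regulators of proteasome genes and their partners (Nfe2l1, Nfe2l2, Nfe2l3, Maff), the protease Ddi2, Zfand2a, the assembly chaperone Psmg2 and the immunoproteasome subunit Psmb9 in every sample, with a bar at each group's median and open circles for mice with Xist signal. Nfe2l3 and Maff are higher and Ddi2 and Psmg2 lower in tumors than in WT liver, with no overlap, whereas Nfe2l1 overlaps.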

How the data were processed

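Liver and tumor RNA was measured on a 1-colour custom Affymetrix mouse array. The authors normalized the arrays with RMA (its version was not stated) and deposited 1 linear intensity per probe set and sample, scaled to a mean of 1.0 per sample. Here log2 of the deposited intensity was tested with limma (lmFit, eBayes, two-sided) over 43681 probe sets with Benjamini-Hochberg adjustment. Gene symbols came from the platform annotation, which gave 30342 probe sets 1 symbol and 13339 none, updated through RefSeq names. The genes and lists were chosen with earlier results of these data known. Values were given for the called members with the largest change, up to 6 in each direction, and the 2 members of each part with the widest group means. Of other lists up to 4 genes were named. In deviations over all genes, same-numbered distant and tumor samples correlated at 0.125 to 0.384. The range was 0.034 to 0.341 for adjacent and tumor samples and 0.364 to 0.595 for adjacent and distant samples. These were taken as samples of the same mice. Numbers in other groups mark different mice, and same-numbered distant and WT samples correlated at -0.356 to 0.326. Samples numbered in the labels were taken as separate mice, so p-values measure the spread between these samples. Alternatives covered thresholds, scaling, filters, the replicate block, array weights and left-out samples. The code was checked on simulated data. Tools were Python 3.11.15, pandas 2.3.3, numpy 2.4.6, scipy 1.17.1, matplotlib 3.10.9, R 4.3.3 and limma 3.58.1.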

Additional observations from a re-analysis of the deposited data

Results flagged for a closer look

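Among 170 groups of 7 samples, 8 held a sample far from its group, and chance alone gives about 1 in 20 groups. Psmc3 was 2.54 in distant sample 1 against 2.80 to 2.89 in the others. Psmb4 and Psmb6 were also low in that sample, at 3.62 (others 3.75 to 3.85) and 3.21 (others 3.43 to 3.56). Psmc4 was 2.72 in adjacent sample 7 against 2.28 to 2.40. Psmc6 was 1.94 in LAP-tTA sample 7 against 2.05 to 2.11. Psmb2 was 2.56 in TRE-MET sample 4 against 2.70 to 2.78, and Psmd12 was 1.76 in TRE-MET sample 3 against 1.94 to 2.02. Psmb4 was 3.53 in WT sample 1, a mouse with Xist signal, against 3.68 to 3.79.

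For 3 genes the change from LAP-tTA to TRE-MET liver was unlike the change from WT to distant liver by limma's contrast of both. The differences of the differences were 0.86 for Psma8, -0.30 for Psma7 (limma adjusted p = 0.0207) and -0.30 for Psmd5 (limma adjusted p = 0.0328).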

How the results depend on the processing

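Of 73 calls of single genes, 45 held under every alternative listed with the design, and 14 held when the alternatives chosen after seeing the data, on Xist signal, tumor 1b and TRE-MET subsets, were counted too. Psmd8 in all 3 tumor comparisons was among the 14. One value reversed: Psma5 in tumors against WT liver was 0.033 in mice with Xist signal.

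At an adjusted p under 0.01 the counts of called subunits were 1 for TRE-MET against LAP-tTA (2 as reported), 0 for distant against WT (1), 1 for adjacent against WT (3), 10 for tumor against WT (18), 1 for WT against LAP-tTA (3) and 1 for the difference of differences (3). With the methods' test at an unadjusted p under 0.01 they were 7 for TRE-MET against LAP-tTA, 2 for distant and 7 for adjacent against WT, 1 for adjacent against distant, 1 for WT against TRE-MET and 7 for WT against LAP-tTA. With sample medians set equal, adjacent against WT had 10, WT against TRE-MET 2 and WT against LAP-tTA 1. Testing only probe sets above the median level gave 2 for distant and 6 for adjacent against WT. All groups in one fit gave 2, 9, 2 and 5 for distant against WT, adjacent against WT, WT against TRE-MET and WT against LAP-tTA. Array weights gave 2 for distant and 8 for adjacent against WT and 5 for WT against LAP-tTA, where 1 probe set per gene gave 6.

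With the replicate block the counts were 1 for TRE-MET against LAP-tTA, 0 for distant, 1 for adjacent and 12 for tumor against WT, 1 for WT against LAP-tTA, and, where the numbers pair samples of the same mice, 17 for tumor against distant, 20 for tumor against adjacent and 0 for adjacent against distant. The block changed the count by over 1.5 times only where numbers mark different mice.

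Without TRE-MET samples 1, 2, 3 and 5 there was 1 call against LAP-tTA, and without samples 4, 6 and 7 there was 1 for WT against TRE-MET. With Xist signal as a term, distant against WT had 0 calls. In mice with the signal only, the counts were 0 for distant and 0 for adjacent against WT, 9 for tumor against WT, 8 against distant and 13 against adjacent. In mice without it they were 0, 0, 8, 6 and 7, and 1 each for WT against TRE-MET and against LAP-tTA. Those fits used fewer samples.

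Leaving out 1 replicate gave 1 to 2 calls for TRE-MET against LAP-tTA, 0 to 2 for distant, 1 to 7 for adjacent and 13 to 18 for tumor against WT, 17 to 19 for tumor against distant, 21 to 25 for tumor against adjacent, 0 to 0 for adjacent against distant, 0 to 1 for WT against TRE-MET (1 without WT 2) and 2 to 5 for WT against LAP-tTA.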
